A study of Mus musculus with 6 samples.

Results

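Expression of the muscle acetylcholine receptor and of the molecules that gather it at the nerve terminal was followed in the tibialis anterior (TA) muscle of the mouse, before and 3 days after a toxin injury. The set has 10 genes, all present among the 26431 genes of the RPKM table: the receptor subunit genes Chrna1, Chrnb1, Chrnd, Chrne and Chrng, and the organizers Agrn, Lrp4, Musk, Dok7 and Rapsn. They were taken by name as the fetal and adult receptor subunits and the agrin to MuSK pathway, with earlier results of these data known and no rule on their values. For a gene with several transcripts the most abundant of them, by mean RPKM over all 6 libraries, stood for the gene. RPKM divides the reads of a transcript by its length and by the depth of the library, so levels of different genes are compared here per length.

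The uninjured group was 3 untreated C57BL/6 mice, and the day 3 group was 3 C57BL/6 mice whose TA muscle had received about 50 μl of 10 μM cardiotoxin (CTX), a cobra venom preparation from Naja mossambica mossambica that destroys muscle fibres and leaves the muscle to regenerate. All 6 mice were labelled female and 8 to 10 weeks old, with 1 library per mouse from 1 μg of total RNA and no genetic change in either group. The published methods name male mice as the default, and this conflict with the labels was not resolved here. The uninjured mice are described as untreated, so the effect of the needle and of the carrier saline cannot be told apart from that of the toxin. The comparison addresses which genes of the receptor and its synapse differ between resting and regenerating muscle, and other times after injury were not analysed here.

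The receptor at the neuromuscular junction is a ring of subunits that opens when the motor nerve releases acetylcholine. Fetal muscle builds it from α, β, δ and γ subunits along the fibre, and after birth the ε subunit takes the place of γ at the synapse. Agrin from the nerve terminal binds LRP4 on the muscle surface, LRP4 activates the kinase MuSK, DOK7 is the cytoplasmic partner that MuSK needs for this activation, and rapsyn holds the receptors together in clusters under the nerve ending. The fetal subunit is well known to return in muscle that has lost its nerve or is regenerating.

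Sequencing depth was similar in the groups, at 38737746 to 43062684 mapped reads in uninjured and 34202861 to 36129090 in day 3 libraries, so that a single read on 1 kb of transcript is worth 0.0232 to 0.0292 RPKM. Mitochondrial sequences held 22.1% to 24.7% of the reads in uninjured and 4.77% to 6.62% in day 3 libraries, and the median gene was higher by 1.35 on the log2 scale at day 3 as deposited. Each change below is therefore also given relative to that median. The uninjured libraries showed the markers of adult fast fibres that the tissue label calls for (summed 45154 to 49013 RPKM), and day 3 libraries held 2050 to 8771. The summed level of 6 macrophage markers went from 5.17 to 9.12 RPKM in uninjured to 818 to 1198 RPKM at day 3 (6 of 6 higher), of 5 fibroblast markers from 157 to 246 to between 1566 and 1704 (4 of 5 higher), and of 5 markers of myoblasts and new fibres from 13.2 to 18.3 to between 550.2 and 800.4 (5 of 5 higher). For 8 Schwann cell and myelin markers the sums were 32.7 to 58.2 and 70.5 to 89.2 RPKM (4 of 8 higher), and for 5 endothelial markers 63.4 to 72.8 and 77.3 to 81.7 RPKM (0 of 5 passed). The counts of markers follow the calling rule of the next paragraph, under which 60.5% of all genes tested were higher as deposited. The 4 of 8 Schwann cell and myelin markers and the 0 of 5 endothelial markers are below that share. No marker in these lists was at 0 in every library of a group. The part of these other cells in the results below was not tested. In whole muscle, fewer cells of a type and less RNA per cell cannot be told apart.

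As deposited, 9 of the 10 genes were higher at day 3 and Chrne was lower (limma on log2(RPKM + 0.1), adjusted p under 0.05 over the 14446 genes tested and a change of at least 2-fold). All 10 passed the filter on low values, a mean of at least 0.5 RPKM, and in none of them did the groups overlap as deposited, 9 lying higher and 1 lower at day 3. Over all genes tested, the groups were apart with day 3 higher in 78.5% and with day 3 lower in 14.5%, so 9 and 1 of 10 are near the background. Under the same rule 60.5% of all genes tested were called higher and 7.96% lower, so a rise in this table is common and a fall is not. The median log2 fold change of the 10 genes was 1.53, beside 1.35 over all genes tested. Chrng, Chrnd and Chrna1 stood at 7.50, 3.38 and 3.16 above that median and Chrne at −4.40 from it, while the other 6 lay between −0.30 and 0.55 of it. The plot of RPKM by library shows these levels.

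**Figure D1:**
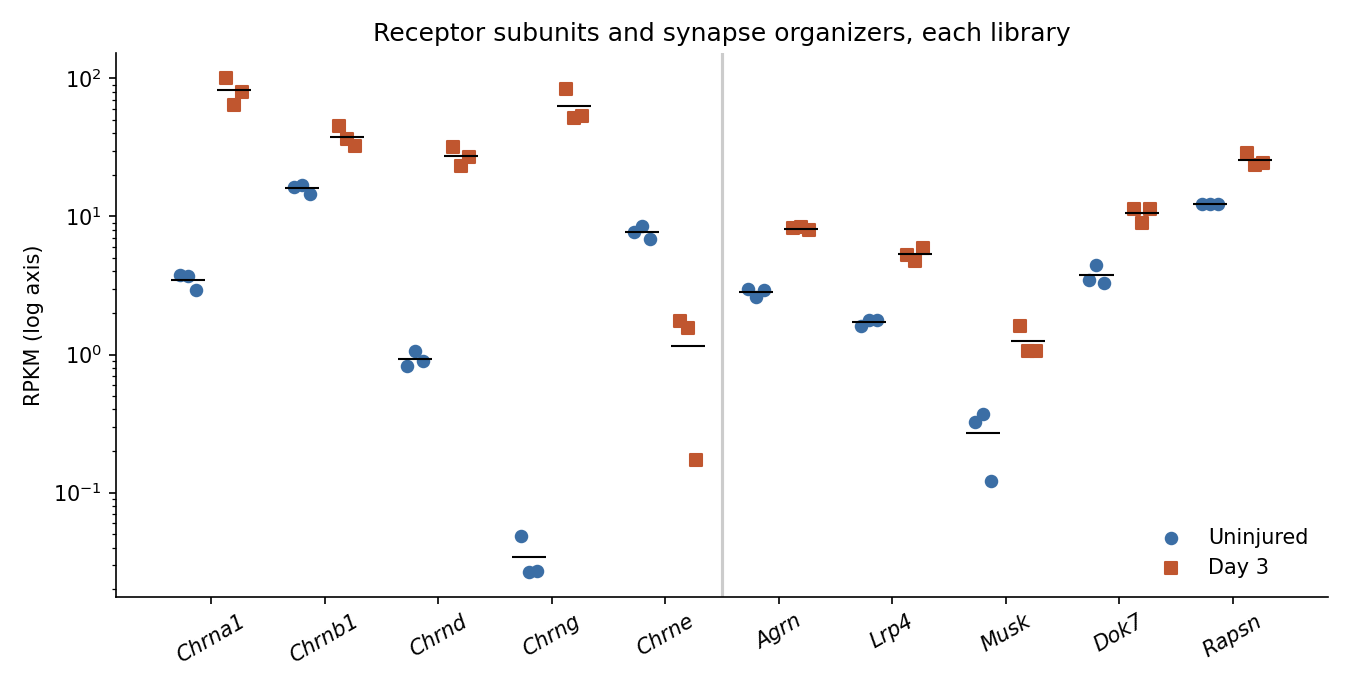
RPKM (log axis) of the 5 receptor subunit genes (left of the grey line) and the 5 organizer genes in each library, with circles for the 3 uninjured and squares for the 3 day 3 libraries and a bar at each group mean. Chrng moves from at most 0.0484 RPKM to at least 52.0 RPKM, Chrne is the single gene whose day 3 points lie below the uninjured ones, and 1 day 3 library is far below the others for Chrne. The rises of Chrnb1, Agrn, Lrp4, Musk, Dok7 and Rapsn drawn here are those of the values as deposited, and each of these genes had a log2 fold change below 0 under 1 or more other scalings.

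Chrng encodes the γ subunit of the fetal receptor and was almost unread in uninjured muscle. Its level was 0.0484, 0.0266 and 0.0269 RPKM in uninjured libraries, which is 4, 2 and 2 reads, and 83.7, 52.0 and 53.7 RPKM at day 3, which is 5502, 3547 and 3727 reads. Replicate 1 was the highest of the day 3 libraries, and all 3 were far above every uninjured library. The log2 fold change was 8.85 (SE 0.19, adjusted p = 8.23e-08 by limma), the third largest rise of all genes tested. This value depends on the added 0.1 RPKM because of the few uninjured reads. The pooled reads, 8 in uninjured and 12776 at day 3, give a ratio of 1824 after division by the library totals, with an exact 95% interval of 926 to 4227 that covers counting error only.

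Chrne encodes the ε subunit of the adult receptor and went the other way. It had 7.71, 8.47 and 6.91 RPKM in uninjured libraries and 1.74, 1.55 and 0.173 RPKM at day 3. The last of these values rests on 10 reads, against 95 and 88 in the other day 3 libraries and 428 to 531 in uninjured ones, and all 3 are below every uninjured value. The log2 fold change was −3.05 (SE 0.69, adjusted p = 0.00365 by limma), which places Chrne 170th from the bottom of the genes tested. Without day 3 replicate 3 it was −2.16 (SE 0.11), so that library sets much of the size and most of the error, and the fall passed the test without it.

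The exchange of the subunits was also measured within each library, where the share of γ in the deposited values is free of any library factor. The γ transcript made up 0.623%, 0.313% and 0.387% of the summed γ and ε RPKM in uninjured muscle and 98.0%, 97.1% and 99.7% at day 3. These shares averaged 0.441% ± 0.162 and 98.3% ± 1.31 (SD, n = 3). All log2 ratios between genes below are of RPKM + 0.1. The log2 ratio of Chrng to Chrne was −5.72, −6.08 and −5.79 in uninjured and 5.51, 4.98 and 7.62 in day 3 libraries, a difference of 11.90 between the means. Since Chrng had so few uninjured reads, the size rests on the added value, and it was 13.76 with 0.01 and 8.03 with 1 RPKM added. An exact two-sided permutation test over the 6 libraries gave p = 0.1, the smallest p that 3 against 3 allows, and 0.15 after Benjamini-Hochberg adjustment over the 6 ratios computed. The spread among day 3 libraries came mainly from Chrne in replicate 3, and the groups did not overlap.

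Chrna1 encodes the α subunit, which carries the acetylcholine binding site together with its neighbours. Its level was 3.77, 3.69 and 2.93 RPKM in uninjured and 101.2, 64.7 and 80.0 RPKM at day 3. Every day 3 library was thus far above every uninjured one, with a log2 fold change of 4.51 (SE 0.17, adjusted p = 2.81e-07 by limma) that was higher than that of 94.9% of the genes tested. Chrnd encodes the δ subunit, present in both the fetal and the adult receptor. It had 0.827, 1.07 and 0.902 RPKM in uninjured libraries, from 104 to 124 reads, and 31.9, 23.3 and 27.0 RPKM at day 3, from 2458 to 3242 reads. The log2 fold change was 4.73 (SE 0.14, adjusted p = 1.30e-07 by limma), close to that of Chrna1. The log2 ratio of Chrna1 to Chrnd was 2.06, 1.70 and 1.60 in uninjured and 1.66, 1.47 and 1.56 in day 3 libraries, a difference of −0.22 (exact two-sided permutation p = 0.2, adjusted 0.24) with overlapping groups. That difference took the other sign with an added 1 RPKM (0.33) and after quantile normalization (0.038).

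Chrnb1 encodes the β subunit, also shared by the fetal and the adult receptor, and its values did not follow those of Chrna1 and Chrnd. It had 16.3, 17.0 and 14.6 RPKM in uninjured libraries and 45.2, 36.3 and 32.3 RPKM at day 3. The groups did not overlap as deposited, but the log2 fold change of 1.23 (SE 0.13, adjusted p = 5.35e-05 by limma) was 0.12 below the median of all genes, and the log2 fold change was −0.11 under median-of-ratios and −0.92 under ribosomal scaling. The log2 ratio of Chrna1 to Chrnb1, which a scaling factor hardly alters, went from −2.09, −2.18 and −2.27 in uninjured to 1.16, 0.83 and 1.31 in day 3 libraries. The difference was 3.28 with no overlap (exact two-sided permutation p = 0.1, the smallest possible, adjusted 0.15). In uninjured muscle the β transcript was thus several times as abundant per length as the α transcript, and at day 3 the order was the opposite in all 3 mice.

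Summed over the 5 subunits, the receptor transcripts had 28.1 ± 2.53 RPKM in uninjured and 212 ± 45.8 RPKM in day 3 libraries (SD, n = 3), with no test of the sum. In uninjured muscle Chrnb1 held 56.9%, Chrne 27.4%, Chrna1 12.3%, Chrnd 3.32% and Chrng 0.121% of the summed RPKM of the 5 subunits, as means over 3 libraries. At day 3 Chrna1 held 38.7%, Chrng 29.6%, Chrnb1 18.1%, Chrnd 13.0% and Chrne 0.540%. The SDs were at most 2.53 percentage points in any subunit and group. The small share of Chrne at day 3 was uneven all the same, at 0.659%, 0.871% and 0.0896% of the sum. The stacked bars show both makeups, with the band of Chrne replaced by one of Chrng.

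**Figure D2:**
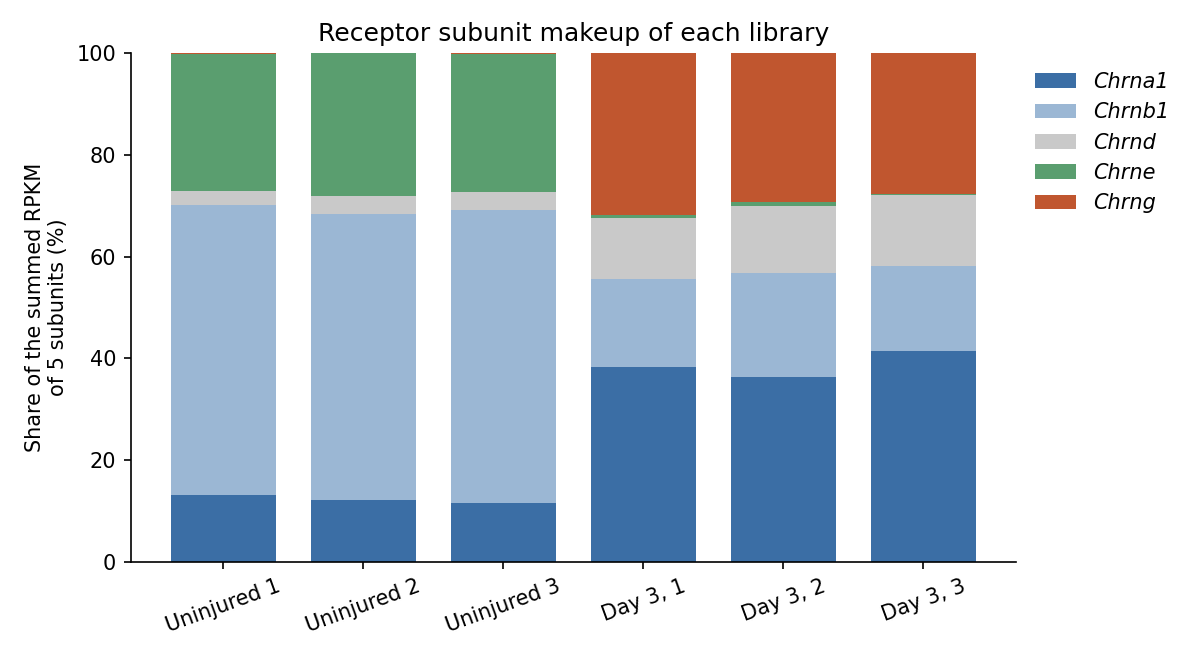
Share of each subunit gene in the summed RPKM of the 5 receptor subunits (vertical axis, %), 1 bar per library, 3 uninjured and 3 day 3. Chrne holds 26.9% to 28.0% of the uninjured bars and at most 0.871% of the day 3 bars, while Chrng holds at most 0.169% and then 27.8% to 31.7%.

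Under scaling to the 92 ERCC spike-ins 7 of the 10 genes were called higher and 1 lower, beside 48.1% and 11.1% of all genes tested, and with mitochondrial sequences left out of the total 7 and 1, beside 51.8% and 10.2%. With median-of-ratios scaling 3 were higher and 1 lower (26.3% and 22.5% of all genes), with quantile normalization 3 and 1 (24.0% and 24.7%), and with factors from 78 ribosomal protein genes 3 and 2 (16.0% and 41.7%). The same 3 genes, Chrng, Chrna1 and Chrnd, were higher and Chrne was lower under each of these 5 scalings. Over them the log2 fold change ranged from 7.28 to 8.66 for Chrng, from 2.38 to 4.21 for Chrna1, from 2.66 to 4.44 for Chrnd and from −4.95 to −3.32 for Chrne. Musk, Dok7, Lrp4 and Agrn were called higher under the spike-in and the mitochondria-free scalings and under none of the other 3, and Chrnb1 under none of the 5. Rapsn was called higher under none of the 5 and lower under ribosomal scaling. The plot of fold change by scaling shows how the whole set shifts from one scaling to the next.

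**Figure D3:**
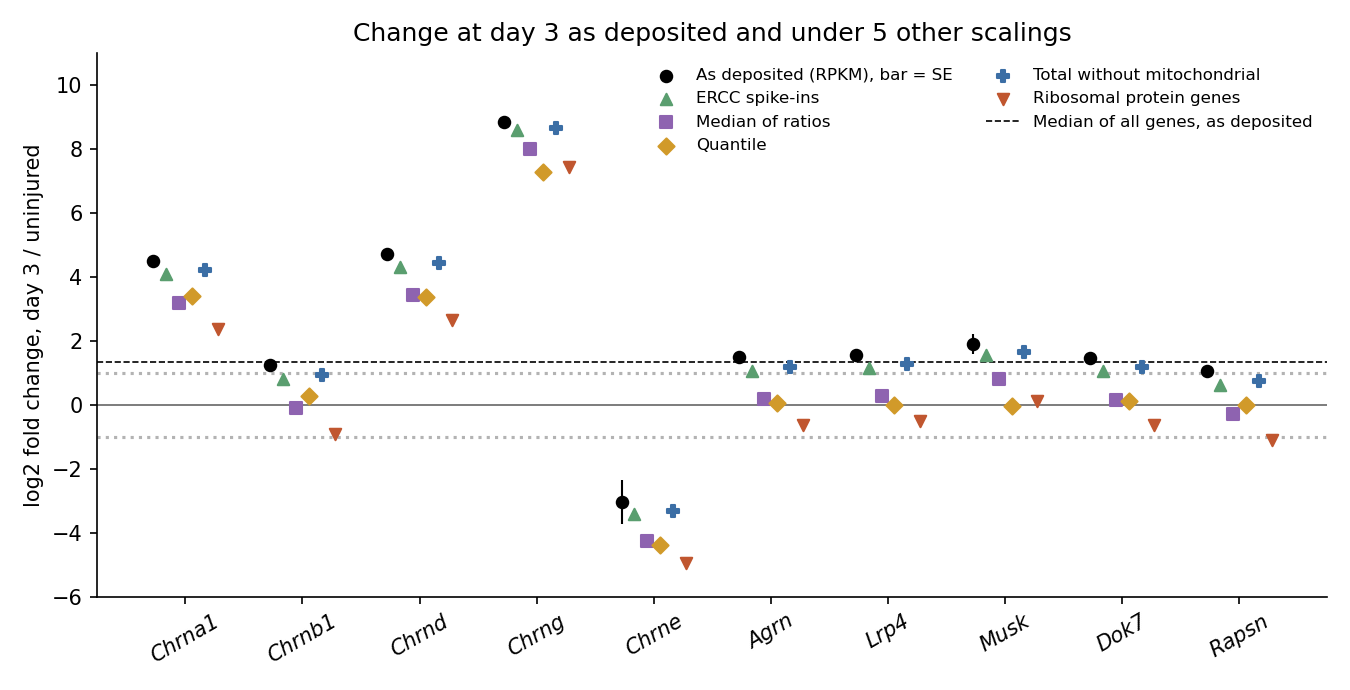
log2 fold change of day 3 over uninjured (vertical axis) for each gene as deposited (black, bar = SE) and under 5 other scalings of the libraries, with dotted lines at the 2-fold limits and a dashed line at the median of all genes as deposited, 1.35. Chrng, Chrna1 and Chrnd lie above the upper limit and Chrne below the lower one with every symbol, whereas Chrnb1, Agrn, Lrp4, Musk, Dok7 and Rapsn sit near the dashed line as deposited and each has 1 or more symbols below 0.

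Agrn encodes agrin, the signal that clusters receptors, which motor neurons release and muscle and other cells also make. Its level was 2.99, 2.62 and 2.93 RPKM in uninjured and 8.22, 8.35 and 7.92 RPKM at day 3. The log2 fold change was 1.49 (SE 0.08, adjusted p = 1.07e-06 by limma), 0.14 above the median of all genes, and −0.62 under ribosomal scaling. The table lists 1 agrin transcript, so the splice form that acts at the synapse was not told apart here. Lrp4, the agrin receptor, had 1.61, 1.77 and 1.77 RPKM in uninjured and 5.26, 4.77 and 5.90 RPKM at day 3. Its log2 fold change of 1.57 (SE 0.10, adjusted p = 3.15e-06 by limma) was 0.22 above the median of all genes, and it turned to −0.52 under ribosomal scaling and −0.017 after quantile normalization. The changes of the ligand and of its receptor thus both lay near the middle of all genes.

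Musk encodes the receptor kinase at the centre of the pathway, and it was the least abundant of the organizers in this table. The transcript used had 0.323, 0.370 and 0.122 RPKM in uninjured libraries, from 47, 49 and 16 reads, and 1.61, 1.07 and 1.06 RPKM at day 3, from 186, 128 and 130 reads. The groups did not overlap, and the log2 fold change was 1.90 (SE 0.31, adjusted p = 6.94e-04 by limma), 0.55 above the median of all genes and −0.047 after quantile normalization. With an added 1 RPKM Musk was no longer called, and with a filter at a mean of 2 RPKM it was not tested. Musk has 6 transcripts in the table with similar RPKM, and summed over them its level was 1.46, 1.92 and 1.07 RPKM in uninjured and 9.18, 5.25 and 6.74 RPKM at day 3. On this sum the log2 fold change was 2.18 (SE 0.26). The level of Musk relative to Lrp4 depends on the choice, since its mean on 1 transcript was below that of Lrp4 in both groups, while the sums were 1.48 and 2.18 RPKM in uninjured and 7.06 and 6.19 RPKM at day 3. The log2 ratio of Musk to Lrp4 on single transcripts was −2.02, −1.99 and −3.08 in uninjured and −1.65, −2.06 and −2.37 in day 3 libraries. Its difference of 0.34 lay within the spread of the replicates (exact two-sided permutation p = 0.7, adjusted 0.7), and without uninjured replicate 3 it was −0.022.

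Dok7 encodes the adaptor that binds and activates MuSK inside the muscle cell. It had 3.49, 4.46 and 3.30 RPKM in uninjured and 11.4, 8.96 and 11.4 RPKM at day 3. The log2 fold change was 1.47 (SE 0.14, adjusted p = 3.40e-05 by limma), 0.12 above the median of all genes, and −0.65 under ribosomal scaling. Rapsn encodes rapsyn, the scaffold that binds the receptor directly. Its level was 12.27, 12.33 and 12.32 RPKM in uninjured muscle, from 856, 781 and 773 reads, and 29.0, 23.8 and 24.6 RPKM at day 3. The uninjured coefficient of variation, 0.246%, is below the counting error of such read numbers. It therefore says little about the spread between mice. The log2 fold change was 1.05 (SE 0.09, adjusted p = 1.12e-05 by limma), 0.30 below the median of all genes and close to the 2-fold limit. Without day 3 replicate 1 it was 0.97 and the call was lost, which leaves 8 genes called higher, and it was −0.28 and −1.09 under median-of-ratios and ribosomal scaling. Relative to Chrna1, the log2 level of Rapsn went from 1.68, 1.71 and 2.03 in uninjured to −1.80, −1.44 and −1.70 in day 3 libraries. This is a difference of −3.45 without overlap (exact two-sided permutation p = 0.1, the smallest possible, adjusted 0.15), so transcripts of the scaffold were above those of the α subunit in uninjured muscle and below them at day 3.

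In uninjured muscle the order of levels was Chrnb1, Rapsn, Chrne, Dok7, Chrna1, Agrn, Lrp4, Chrnd, Musk and Chrng. The ranges of Dok7 and Chrna1 overlapped, as did those of Chrna1 and Agrn, and all other neighbours were apart. At day 3 the order was Chrna1, Chrng, Chrnb1, Chrnd, Rapsn, Dok7, Agrn, Lrp4, Musk and Chrne. Here Chrna1 overlapped Chrng, Chrnd overlapped Rapsn, and Musk overlapped Chrne. Chrng thus moved from the last to the second place and Chrne from the third to the last, with Musk counted by 1 of its 6 transcripts.

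Day 3 replicate 3 stood apart for Chrne and for adult fibre genes. Chrne was lower there by 2.67 on the log2 scale than the mean of the other day 3 libraries, and only 0.138% of the genes tested were further down. The 8 adult fast fibre markers were all lower in that library, with a median difference of −2.06, while the median of all genes differed by 0.06. The other 9 genes of the set differed by −0.33 to 0.23. Relative to the geometric mean of these 8 fibre genes, the log2 level of Chrne was −9.29, −9.21 and −9.58 in uninjured and −8.41, −9.07 and −9.30 in day 3 libraries. On that scale the groups overlapped and differed by 0.43, and with no added value day 3 replicate 3 was at −9.96 and the difference was 0.18. This ratio was formed after the values were seen and is given without a test. The part of fibre loss in the fall of Chrne was not tested.

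**Figure D4:**
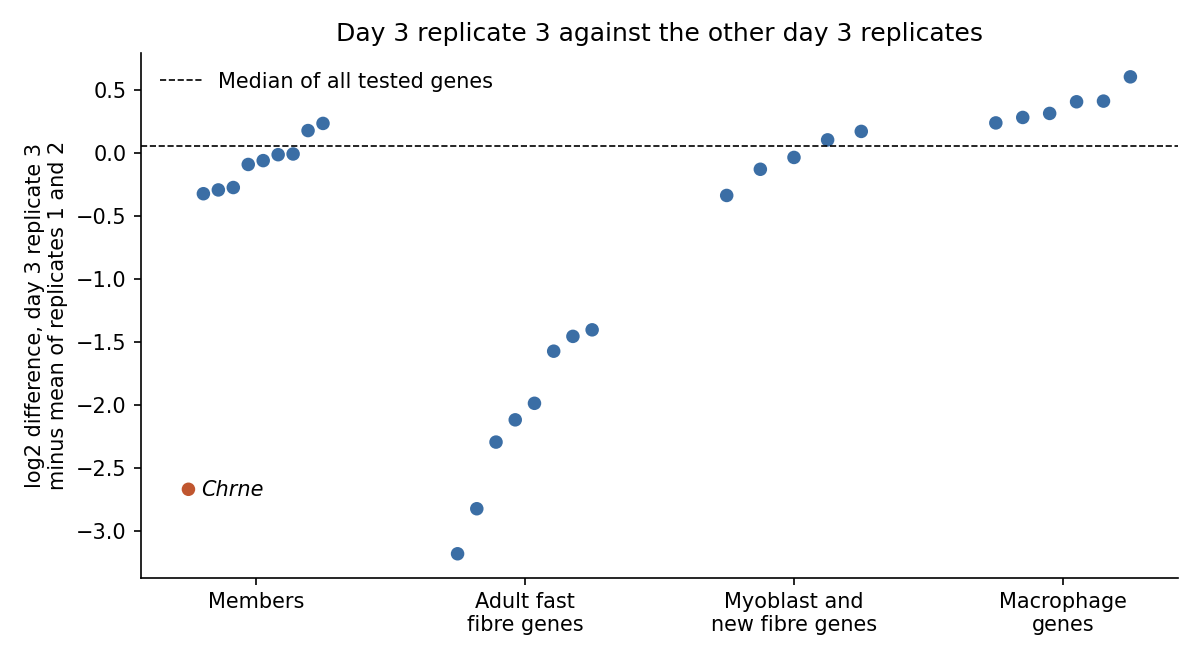
log2 difference of day 3 replicate 3 from the mean of day 3 replicates 1 and 2 (vertical axis) for the 10 genes of the set, 8 adult fast fibre genes, 5 genes of myoblasts and new fibres and 6 macrophage genes, 1 point per gene. Chrne (orange) is at −2.67, inside the range of the fibre genes, and the other 9 genes are between −0.33 and 0.23, near the dashed median of all genes at 0.06.

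Promoter sequence is shown for 3 receptor genes, Chrng and Chrna1 on the rising side and Chrne on the falling side. Chrnd rose by 4.73 as deposited, more than the 4.51 of Chrna1, but had no promoter sequence in the reference used. The receptor genes are textbook targets of myogenic factors and of nerve signals. Myogenic factors bind the E-box, CANNTG, and the N-box, CCGGAA, is an element described for synapse-specific transcription. RefSeq on GRCm38.p6 gave windows for 7 of the 10 genes, all except Chrnd, Rapsn and Lrp4. The 250 bases before the start site are printed 5′ to 3′ on the coding strand, with E-boxes and N-boxes in capitals, for chr1:87205561-87205810 (+ strand, Chrng), chr2:73580339-73580588 (− strand, Chrna1) and chr11:70619195-70619444 (− strand, Chrne).
Chrng: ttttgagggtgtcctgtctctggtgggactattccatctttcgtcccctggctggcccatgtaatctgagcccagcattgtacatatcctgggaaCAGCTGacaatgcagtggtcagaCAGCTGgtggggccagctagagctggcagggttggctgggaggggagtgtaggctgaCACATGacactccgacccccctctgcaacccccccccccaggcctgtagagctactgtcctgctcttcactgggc
Chrna1: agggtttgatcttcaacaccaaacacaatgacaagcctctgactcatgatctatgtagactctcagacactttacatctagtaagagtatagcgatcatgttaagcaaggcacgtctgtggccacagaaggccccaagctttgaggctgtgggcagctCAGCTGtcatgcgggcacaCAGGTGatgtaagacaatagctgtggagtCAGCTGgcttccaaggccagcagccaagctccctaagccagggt
Chrne: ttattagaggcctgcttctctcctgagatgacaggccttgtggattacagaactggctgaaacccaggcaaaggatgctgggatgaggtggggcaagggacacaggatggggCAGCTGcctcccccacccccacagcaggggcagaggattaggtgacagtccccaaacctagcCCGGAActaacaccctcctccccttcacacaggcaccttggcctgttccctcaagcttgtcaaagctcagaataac
The Chrng window has CAGCTG starting 155 and 132 bases before the start site and CACATG at 75 bases, and the Chrna1 window has CAGCTG at 92 and 44 bases and CAGGTG at 73 bases. The Chrne window has CAGCTG at 138 bases and the N-box CCGGAA at 76 bases. CAGCTG is its own reverse complement and is counted among the E-boxes, which read as CANNTG on both strands, and the N-box was searched on both strands. Of 32851 such windows of mouse genes, 12.2% held 3 or more E-boxes, 13.0% held CAGCTG and 1.26% held CAGCTG more than once. An N-box was in 12.0% of the windows, together with any E-box in 6.75% and together with CAGCTG in 1.29%. Chrnb1 and Musk also had 3 E-boxes each, and their changes lay near the median of all genes. Any link between the number of E-boxes and the change was not tested. Dok7 and Agrn each had 1 E-box in 1 of their 2 windows and none in the other, and no N-box was found outside Chrne. These matches describe letters only, and binding was not measured. Chrnd and Chrng are neighbours on chromosome 1, with no other RefSeq gene starting between them.

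Myogenic regulators, the E-box binding factors that switch on muscle genes, were higher for 3 of 4 members as deposited and under median-of-ratios scaling, and lower for 1 of 4 in both. Over all genes tested, 60.5% and 26.3% were called higher under these scalings, and 7.96% and 22.5% lower. Myog (myogenin), the factor of differentiating myoblasts, had 2.39, 2.08 and 2.02 RPKM in uninjured and 534, 350.4 and 421 RPKM at day 3. Its log2 fold change of 7.57 (SE 0.15, adjusted p = 8.23e-08 by limma) was the largest of the 4. Myod1, active in proliferating and early differentiating myoblasts, rose by 3.66, and Myf6, the member most abundant in mature muscle, fell by 1.75. The log2 ratio of Chrna1 to Myog was 0.63, 0.80 and 0.52 in uninjured and −2.40, −2.43 and −2.39 in day 3 libraries, and that of Chrnd to Myog was −1.43, −0.91 and −1.08 and then −4.06, −3.91 and −3.96. These ratios were chosen after the values were seen and carry no test, and Chrng had too few uninjured reads for one.

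Among 22 partners of MuSK signalling and receptor clustering, 14 were higher, 1 was lower and 7 did not pass as deposited. Under median-of-ratios scaling 5 were higher and 6 lower. The counts are near the shares of all genes, 60.5% and 26.3% called higher and 7.96% and 22.5% called lower. The median log2 fold change of the 22 partners, 1.34, was next to that of all genes, 1.35. Cttn, the actin regulator cortactin, and the kinase Src had log2 fold changes of 2.97 and 2.72 and were called higher under both scalings. Pdzrn3, a ubiquitin ligase that acts on MuSK, had 19.3, 15.8 and 21.3 RPKM in uninjured and 6.12, 7.31 and 5.47 RPKM at day 3, and fell by 1.56. Of 6 tested genes for receptor assembly and folding in the endoplasmic reticulum, 5 were higher and 0 lower under both scalings. Over all genes 60.5% and 26.3% were called higher. The median log2 fold change of this list was 2.64 as deposited and 1.30 under median-of-ratios scaling. With ribosomal scaling 2 were higher and 1 lower, beside 16.0% and 41.7% of all genes. Tmem35, whose product NACHO assists nicotinic receptor assembly, rose from 0.121, 0.160 and 0.0269 RPKM to 5.63, 4.19 and 3.57 RPKM, and Pdia3, a general protein disulfide isomerase, rose by 4.03. Most members of that list serve many secreted and membrane proteins.

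The postsynaptic scaffold list was split by its members. Of 8 tested, 3 were higher and 3 lower as deposited (median 0.06), and 2 and 4 under median-of-ratios scaling. Scn4a, the sodium channel of adult muscle, had 61.9, 66.7 and 67.5 RPKM in uninjured and 8.96, 13.8 and 3.19 RPKM at day 3, and fell by 3.13. Sntb1 and Sntb2, adaptors of the dystrophin complex, had log2 fold changes of 3.52 and 2.77 and were called higher under both scalings. Of 11 genes of the synaptic basal lamina and of acetylcholinesterase, 6 were higher and 2 lower as deposited (median 1.09), and 2 and 5 under median-of-ratios scaling. For the basal lamina list the counts of higher genes are near the shares of all genes, 60.5% and 26.3%. For the scaffold list 3 of 8 is below 60.5%, and 2 of 8 is near 26.3%. Over all genes tested, 7.96% were called lower as deposited and 22.5% under median-of-ratios scaling. Both lists held larger shares of lower genes than that. Ache, the enzyme that ends transmission, had 14.0, 12.2 and 12.9 RPKM in uninjured and 5.62, 7.22 and 2.72 RPKM at day 3, and fell by 1.41. Prima1, which anchors acetylcholinesterase to membranes, fell by 4.08, while the basement membrane gene Nid2 and the synaptic collagen Col13a1 rose by 2.74 and 2.62. The day 3 values of Scn4a, Ache and Prima1 were lowest in replicate 3, the library that was also lowest for Chrne.

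Neuregulin receptors and ETS factors, another route from nerve to receptor genes, had 6 of 7 tested members higher and 0 lower as deposited (median 1.79), and 2 higher and 0 lower under median-of-ratios scaling. Those were Erbb3, from 1.03, 1.14 and 0.989 to 17.7, 9.74 and 11.7 RPKM, and Erbb2, with a log2 fold change of 2.74. The counts stand beside 60.5% of all genes higher as deposited and 26.3% under median-of-ratios scaling, and 2 of 7 is near the latter. Schwann cells also express Erbb3, and of their 8 markers Mbp, Cnp, Mag and Pmp22 were called higher as deposited, with log2 fold changes of 2.95, 2.45, 1.23 and 1.19. The other 4 were not called, S100b and Sox10 among them at 0.82 and −0.38, and under median-of-ratios scaling 2 of the 8 were higher and 2 lower. The part of Schwann cells in the rise of Erbb3 was not tested. Of 9 tested genes that respond to loss of the nerve in adult muscle, 5 were higher and 2 lower as deposited (median 1.27), and 4 and 3 under median-of-ratios scaling. A count of 5 in 9 is near the 60.5% of all genes called higher, and 7.96% of all genes were called lower. Under median-of-ratios scaling 26.3% of all genes were higher and 22.5% lower. Runx1, a transcription factor, rose by 5.26 from 0.0602, 0.0708 and 0.0714 RPKM to 6.65, 5.78 and 6.48 RPKM, next to Myog, which this list shares with the myogenic regulators. The ubiquitin ligases Fbxo32 and Trim63, which mark wasting of denervated fibres, fell by 2.29 and 1.58. The members of that list thus did not move together.

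**Figure D5:**
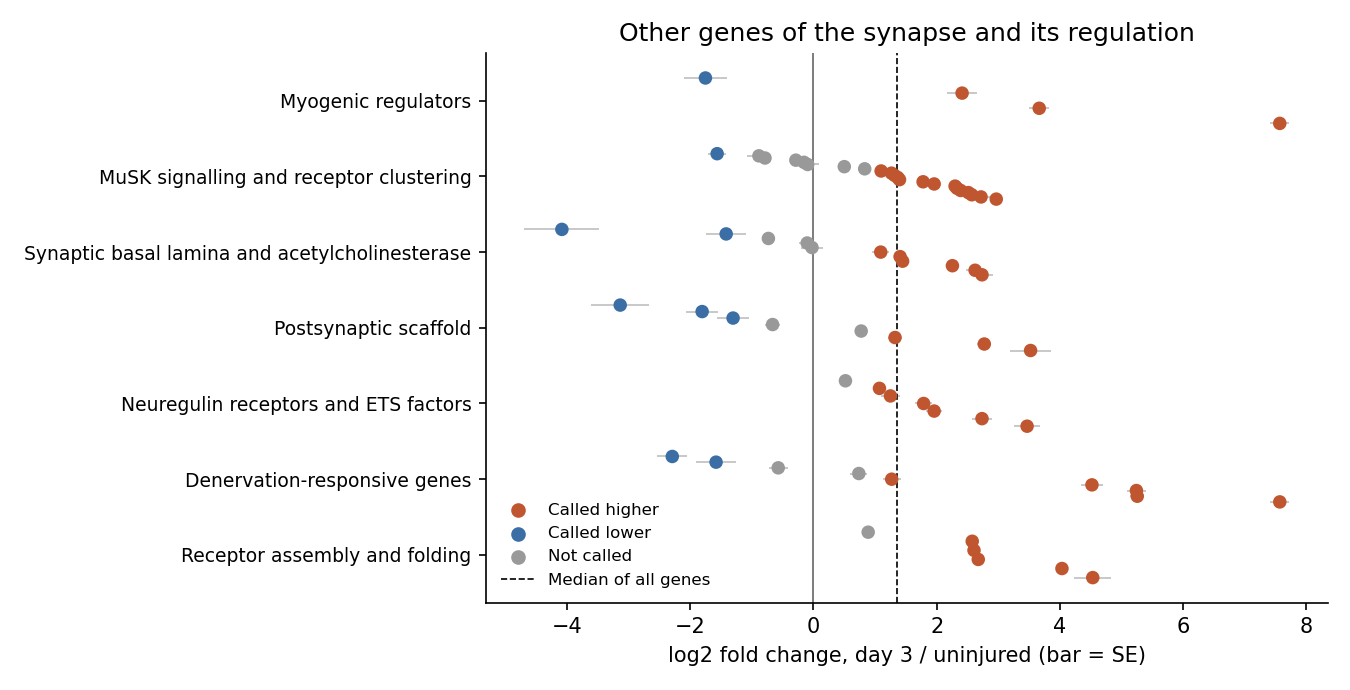
log2 fold change of day 3 over uninjured as deposited (horizontal axis, bar = SE) for the tested genes of 7 lists around the receptor and its synapse, coloured by call, with a dashed line at the median of all genes, 1.35. The 5 called genes of receptor assembly and folding lie at 2.58 to 4.53, the postsynaptic scaffold genes lie on both sides of 0, and calls near the dashed line depend on scaling, with 5 of the 22 MuSK signalling genes higher and 6 lower under median-of-ratios scaling.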

How the data were processed

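RNA from the TA muscle of 3 uninjured mice and 3 mice at day 3 after CTX was sequenced as 50 bp single reads. The authors aligned the reads with BWA to RefSeq mouse transcripts (CASAVA 1.4 and SAMtools 0.1.19 are in the submitters' processing notes) and deposited RPKM values per transcript and library, not pooled. The handling of reads shared by several transcripts is not given in the sources used here. Of the deposited values above the lowest, 0.01, 100% equal a whole number of reads (tolerance 0.01 read), so read numbers were recovered, and 0.01 was taken as 0 reads, although for a long transcript it may stand for 1 read. Rows that name no gene, 92 of 96 of them ERCC spike-ins, held 4.06% to 13.8% of the reads and stayed out of the tests.

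The members, lists, markers and ratios were chosen with earlier results of these data known. limma 3.58.1 (lmFit, eBayes with trend) in R 4.3.3 was run on log2(RPKM + 0.1), so fold changes of low genes are understated. Genes with a mean of at least 0.5 RPKM were tested (14446), 1 transcript each, with Benjamini-Hochberg adjustment over all of them, and the script was tested on simulated data. Counting intervals cover counting error only. Ratios used an exact permutation test in Python 3.11.15 with pandas 2.3.3, NumPy 2.4.6 and SciPy 1.17.1, and plots used matplotlib 3.10.9. Named were all members, up to 2 rising and 2 falling called genes of each of 8 lists, and the 5 genes of mean RPKM at least 5 nearest in profile to Chrng and to Chrne. Some genes of the lists are not reported here by name. Of genes outside that rule, the Schwann cell markers were named after their values were seen. No member shared more than 4 exonic bases with another gene in GENCODE M21. Alternatives varied the pseudocount (0.01 and 1), filter, scaling, limma options, replicate block, transcript choice and libraries, with voom on the recovered reads.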

Additional observations from a re-analysis of the deposited data

How the results depend on the processing

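Chrng, Chrna1, Chrnd and Chrne kept their direction and call under every alternative run. Members called higher numbered 3 under median-of-ratios, ribosomal and quantile scaling against 9 as deposited, and members called lower numbered 2 under ribosomal scaling. The sign turned for Chrnb1 (−0.11 median-of-ratios, −0.92 ribosomal), Rapsn (−0.28 and −1.09), Dok7 (−0.65 ribosomal), Agrn (−0.62 ribosomal), Lrp4 (−0.52 ribosomal, −0.017 quantile) and Musk (−0.047 quantile). Over all genes, 8740 were called higher and 1150 lower as deposited, 2307 and 6020 under ribosomal, 3802 and 3254 under median-of-ratios and 3460 and 3561 under quantile scaling, and 8869 and 1173 with voom on the recovered reads. The log2 ratio of Chrna1 to Chrnd was 0.33 with a pseudocount of 1 and 0.038 after quantile normalization, and that of Musk to Lrp4 −0.39 and −0.030, with the cause not tested. Leaving out each library in turn gave 8 to 9 members called higher and −0.022 (without uninjured replicate 3) to 0.52 for the Musk to Lrp4 ratio. The pseudocount and the few uninjured reads set the size for Chrng, 5.92 with a pseudocount of 1 and 10.61 with voom. Same-numbered libraries did not deviate together (correlations −0.06, 0.09 and 0.02, beside −0.08 to 0.07 for different numbers). No pairing of the mice by number was seen, and 3 libraries per group are too few to exclude it. With a replicate block 9 members were higher and 1 lower, with 8743 and 1149 of all genes. Depth limits Chrng in uninjured muscle, Chrne in day 3 replicate 3 and the single transcripts of Musk.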

Other observations

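The subunits of neuronal nicotinic receptors were near the limit of detection. Of 11 in the table, 1 passed the filter on low values, Chrna10, with 3.47, 4.56 and 4.07 RPKM in uninjured and 0.279, 0.695 and 0.143 RPKM at day 3. It was lower at day 3 by a log2 fold change of −3.29 (SE 0.40, adjusted p = 1.18e-04 by limma), and −4.41 under median-of-ratios scaling. The summed RPKM of the 11 was 4.10 to 5.39 in uninjured and 0.994 to 1.67 in day 3 libraries. Chrna3 and Chrna6 were listed at the lowest value, 0.01, in all 3 uninjured libraries, and Chrnb3 in all 6.

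Over the 6 libraries and 8086 genes with a mean of at least 5 RPKM, the profile nearest to that of Chrng was Tmem8c (myomaker, the myoblast fusion protein), at a root-mean-square distance of 0.32 on the log2 scale after centring. Tmem8c had a mean of 0.0403 RPKM in uninjured and 72.6 RPKM at day 3. The next were Gal (0.37), Mpeg1 (0.41), Ms4a7 (0.41) and Trem2 (0.41), of which Mpeg1, Ms4a7 and Trem2 are genes of macrophages, so nearness on this measure did not single out a cell type. The profiles nearest to that of Chrne were Mybpc1 (0.16), Car3 (0.26), Sypl2 (0.29), LOC101055714 (0.30) and Casq1 (0.31). Mybpc1, Car3 and Casq1 are abundant genes of muscle fibres, and Mybpc1 had mean levels of 364.9 RPKM in uninjured and 64.3 RPKM at day 3.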
